A study of Mus musculus with 6 samples.

Results

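Centromeres are the chromosome sites that hold the spindle in cell division, and 10 mouse genes of their constitutive machinery are described here out of the 20121 genes in the deposited tables. The genes are Cenpa, Cenpb, Cenpc1, Cenph, Cenpi, Cenpk, Cenpm, Cenpn, Cenpt and Hjurp. They were named by symbol and were picked because Cenpa differed between the groups in the opposite direction to most of the others, so their differences between control and mutant hearts are given as a description with no test. All 10 were found and all 10 passed the filter on low counts. RNA was sequenced from whole hearts of 6 pups at postnatal day 14, on a mixed background of ICR and C57BL/6. All pups carried TRalphaAMI, a knock-in allele that makes a dominant negative thyroid hormone receptor alpha once Cre has acted on it. The 3 control pups had this allele alone, and the 3 mutant pups were littermates with Myh6-Cre in addition, a transgene active in heart muscle cells. The Cre thus acts in the muscle cells of a tissue that also holds fibroblasts, vessel cells and macrophages, and no pups carried Myh6-Cre alone. In bulk tissue, fewer cells of a type and less RNA per cell cannot be told apart.

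A centromere is set by its chromatin rather than by its DNA sequence. In its nucleosomes the histone H3 variant CENP-A, the product of Cenpa, takes the place of ordinary H3, and the chaperone HJURP, from Hjurp, brings new CENP-A in after division. On this chromatin sits the constitutive centromere-associated network (CCAN), a set of proteins present through the whole cell cycle, on which the kinetochore is built at mitosis. Heart muscle cells of the mouse mostly leave the cell cycle in the first weeks after birth. Many genes of this machinery, though not all, are read as markers of dividing cells.

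The libraries held 43314706 to 62095277 counts. Values are given as CPM, counts scaled to library size with TMM (a correction for the composition of each library), and log2 fold changes are mutant over control. The genotype labels were checked on Thra, Myh6 and Myh7, genes of the receptor and of its known targets. Thra rose from 76.7 ± 8.54 to 136.6 ± 10.4 CPM, Myh6 fell from 37270 ± 1938 to 3830 ± 431 CPM, and Myh7 rose from 318.7 ± 60.6 to 18080 ± 922 CPM (SD, n = 3 each). The deposited counts do not tell the altered Thra transcript from the normal one. Exons of Thra, Myh6 and Myh7 overlap genes on the opposite strand over 5.7%, 1.70% and 13.3% of their bases. The library kit did not mark strand. Of the 14877 genes tested, 37.5% were called at an adjusted p under 0.05 (edgeR quasi-likelihood, Benjamini-Hochberg adjusted), 18.1% as higher and 19.5% as lower. TMM holds the median log2 fold change at -0.00. Without a composition correction the median moved to 0.28, and 86.1% of the calls were higher against 48.1% with TMM. The p-values measure the spread among these 6 hearts.

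Promoter sequence is shown for Cenpa and for a pair of CCAN genes, since Cenpa was lower in mutant hearts while Cenpm and Cenpn were higher, and all of them have matches to the same cell-cycle motifs. The sequences are the 250 bases before the RefSeq start (GRCm38.p6, the assembly of mm10), written 5′ to 3′ on the strand of the gene. Capitals mark matches to CCAAT (read as ATTGG on the other strand), to the cell cycle homology region CHR (TTTGAA or TTCGAA, or TTCAAA on the other strand) or to E2F words (TTTCCCGC). Cenpa lies at chr5:30666636-30666885 on the plus strand, Cenpm at chr15:82244337-82244586 on the minus strand and Cenpn at chr8:116921490-116921739 on the plus strand. GENCODE M21 also lists starts farther upstream, inside the printed stretch for Cenpa and Cenpn and beyond it for Cenpm, so the stretches are upstream of the RefSeq start only.
Cenpa: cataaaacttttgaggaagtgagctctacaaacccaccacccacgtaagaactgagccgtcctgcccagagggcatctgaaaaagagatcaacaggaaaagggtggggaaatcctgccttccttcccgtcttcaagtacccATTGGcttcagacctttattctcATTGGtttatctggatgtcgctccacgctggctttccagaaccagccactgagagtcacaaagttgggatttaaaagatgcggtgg
Cenpm: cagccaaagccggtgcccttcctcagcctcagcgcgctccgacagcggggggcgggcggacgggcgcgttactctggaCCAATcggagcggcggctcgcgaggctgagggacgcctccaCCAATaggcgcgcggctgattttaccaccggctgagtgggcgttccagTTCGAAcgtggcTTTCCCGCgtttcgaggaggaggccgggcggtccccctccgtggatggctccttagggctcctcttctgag
Cenpn: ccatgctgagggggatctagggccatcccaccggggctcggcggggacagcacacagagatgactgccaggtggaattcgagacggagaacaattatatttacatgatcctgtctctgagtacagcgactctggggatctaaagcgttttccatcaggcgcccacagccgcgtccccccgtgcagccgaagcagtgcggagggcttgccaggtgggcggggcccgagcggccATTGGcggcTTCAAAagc

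Windows from 250 bases before to 50 bases after the start, on either strand, were searched for all 10 genes, which all matched the RefSeq table. Positions are of the first matched base, with the start base as 0. Cenpa held a pair of inverted CCAAT boxes, at -109 and -86, and a CHR word at 16, outside the sequence printed. Hjurp held a CHR word at 19 and 1 inverted CCAAT box at -182. Cenpm was the gene with matches to 3 motifs, having 2 CCAAT boxes, a CHR word and an E2F word (TTTCCCGC), and Cenpn had an inverted CCAAT box at -18 beside a CHR word at -9. In all, CCAAT was found in 8 of the 10 genes against 41.1% of the 27025 genes in the table, CHR in 4 against 21.7%, and the E2F words (TTTCCCGC or TTTGGCGC) in 2 against 1.80%. The nuclear receptor binding word AGGTCA was found in 1, Cenpb, against 18.1% of all genes. In Cenpb this word (TGACCT on the strand of the gene) begins at -146 and shares its last base with the E2F word at -141. Cenpk has 3 starts in the table, and a gene was counted once if any of its windows held the motif. Cenpa and Hjurp both held CHR and CCAAT words, and whether these words bear on the difference of either gene was not tested. A match is a run of letters, not a shown binding site.

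**Figure D1:**
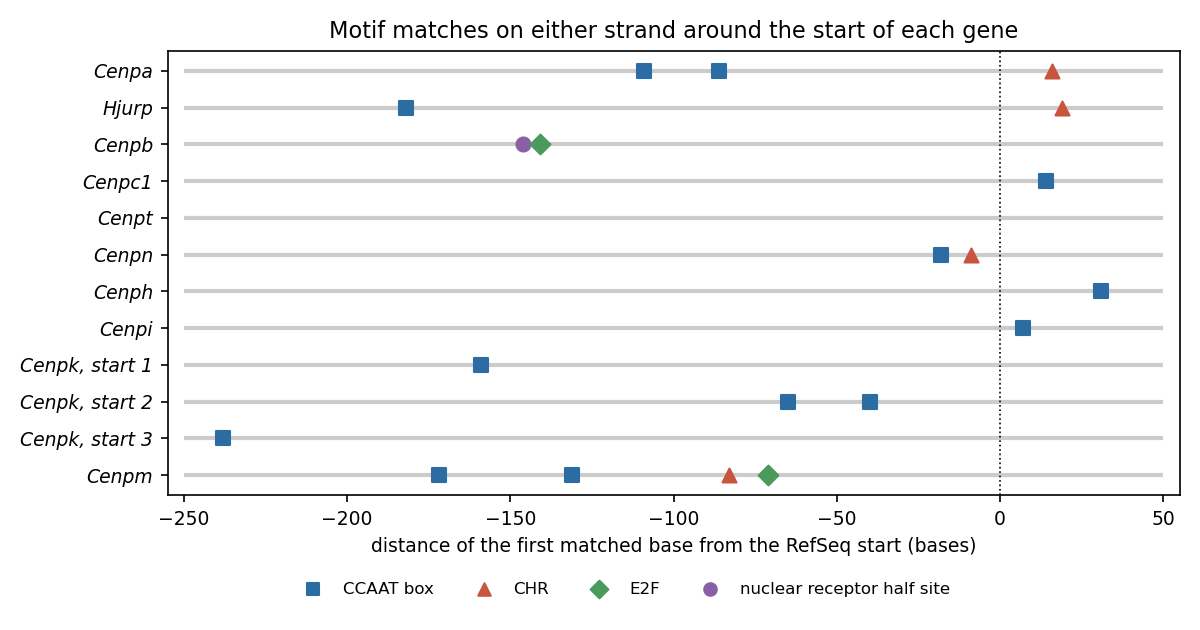
Positions of motif matches in windows around the RefSeq start of each gene, 1 line per start. The horizontal axis is the distance in bases from the start (0) to the first matched base, and symbols give the motif. Cenpa and Hjurp each have a CHR match just after the start, at 16 and 19 bases, and Cenpt has no match in its window. That window ends at chr8:105852258, while the GENCODE M21 gene runs farther upstream to 105853278, a stretch that was not searched.

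Cenpa was lower in every mutant heart than in any control heart. Its gene (ENSMUSG00000029177) lies on mm10 chromosome 5, 30666777 to 30674830, plus strand. Control hearts 1 to 3 held 60.3, 48.2 and 48.9 CPM and mutant hearts 18.7, 17.4 and 15.1 CPM. The means were 52.5 ± 6.78 and 17.1 ± 1.82 CPM (SD, n = 3 each). The log2 fold change was -1.62 ± 0.11 (SE), that is 3.08-fold lower in mutant hearts. This was rank 178 from the lowest among the 14877 log2 fold changes. Leaving out any 1 heart kept the value between -1.69 and -1.51. Each library gave 820 to 2717 counts for Cenpa, so counting error is small beside the spread between hearts.

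The counts of Cenpa cover more than its coding messages. GENCODE M21 lists 10 transcripts for it, of which 3 are protein coding, 4 are marked for nonsense-mediated decay and 3 retain an intron. Of its 5860 exon bases, 69.5% are found only in the retained-intron models, chiefly in 1 exon of 3806 bases that runs on from the first exon. The gene length implied by the deposited RPKM values is 1.006 times the full exon length, the same ratio as for 7 of the other members, so these bases were counted. The share for the others ran from 0.0% for Cenpb, Cenpi and Cenpm to 43.3% for Cenpc1. How the counts of Cenpa divide between spliced and intron-retaining RNA was not tested, since the tables give 1 value per gene.

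Hjurp, the loading chaperone, was higher in mutant hearts (ENSMUSG00000044783, chromosome 1, 88262471 to 88277633, minus strand). Control hearts held 53.9, 53.4 and 59.5 CPM and mutant hearts 84.5, 69.6 and 66.9 CPM. The groups did not overlap, mutant heart 1 being the highest. The log2 fold change was 0.41 ± 0.09 (SE), or 1.32-fold.

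The ratio between the histone and its chaperone within a heart does not depend on library scaling. It was taken from the deposited RPKM values, which divide counts by gene length. Cenpa over Hjurp was 1.59, 1.28 and 1.17 in control hearts and 0.315, 0.354 and 0.321 in mutant hearts, that is 1.35 ± 0.218 against 0.33 ± 0.0213 (SD, n = 3 each). On this length, control hearts held more Cenpa than Hjurp RNA and mutant hearts less. Another length for the same counts would move the ratio by the same factor in all 6 hearts. Counting other exons need not do so, and this was not tested. Against Cenpc1, the CCAN gene next in level, the ratio of Cenpa went from 5.54 ± 0.516 to 1.504 ± 0.0774 (SD, n = 3 each). Against Cenpn, whose product reads CENP-A nucleosomes, it went from 25.5 ± 7.46 to 4.32 ± 0.592.

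**Figure D2:**
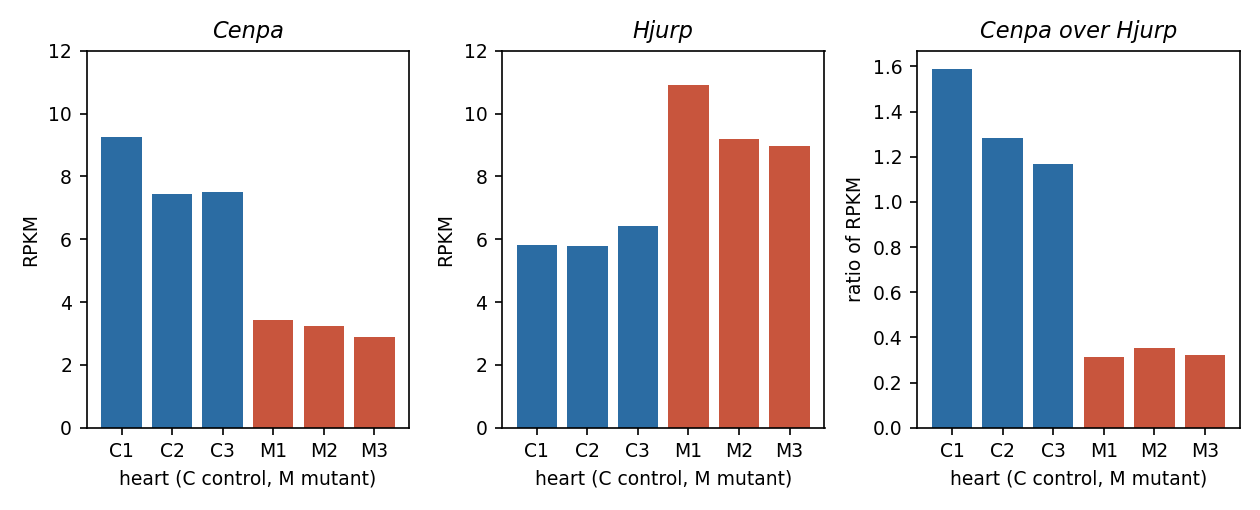
Deposited RPKM of Cenpa and Hjurp in each heart, and the ratio of both within the heart. Bars are single hearts, C1 to C3 control and M1 to M3 mutant, on axes that start at 0. The ratio is 1.17 to 1.59 in control hearts and 0.315 to 0.354 in mutant hearts.

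Cenpb, which encodes the protein that binds a short box in centromeric satellite DNA, had the smallest difference of the 10 (ENSMUSG00000068267, chromosome 2, 131175182 to 131180067, minus strand). Control hearts held 150.6, 166.9 and 149.4 CPM and mutant hearts 143.5, 128.4 and 134.7 CPM. All mutant hearts lay below all control hearts, with a log2 fold change of -0.20 ± 0.07 (SE), but the sign depended on scaling. Without a composition correction it was 0.08, against a median gene at 0.28. Cenpb is a single-exon gene model in M21, and 0.409% of its exon bases are shared with Spef1 on the same strand.

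The CCAN genes chosen were all higher in mutant hearts. In mm10 coordinates, Cenpc1 (ENSMUSG00000029253) lies on chromosome 5, 86012024 to 86065583, minus strand. Cenpn (ENSMUSG00000031756) lies on chromosome 8, 116921730 to 116941507, plus strand, and Cenpt (ENSMUSG00000036672) on chromosome 8, 105844673 to 105853278, minus strand. Cenpc1, encoding CENP-C, which binds the CENP-A nucleosome and links it to the kinetochore, held 9.87, 9.37 and 8.11 CPM in control and 11.3, 11.4 and 9.997 CPM in mutant hearts. The groups came close without overlapping, and the log2 fold change was 0.26 ± 0.10 (SE), less than the shift of 0.28 in the median between scalings. Without a composition correction the value of Cenpc1 was 0.54, against a median gene at 0.28. Cenpn, whose product recognises CENP-A nucleosomes, held 0.995, 1.33 and 1.24 CPM in control and 2.11, 2.36 and 2.21 CPM in mutant hearts, a log2 fold change of 0.89 ± 0.16 (SE). Cenpt, encoding a histone-fold protein that holds the Ndc80 complex, held 4.18, 4.81 and 3.84 CPM in control and 6.37, 7.77 and 7.31 CPM in mutant hearts. Its log2 fold change was 0.74 ± 0.12 (SE).

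The subunits of the CENP-H, CENP-I, CENP-K and CENP-M subcomplex had the lowest control levels of the 10, and all 4 were higher in mutant hearts. Cenpi (ENSMUSG00000031262) lies on chromosome X, 134308084 to 134362639, plus strand, and Cenpm (ENSMUSG00000068101) on chromosome 15, 82233779 to 82244748, minus strand. Cenph (ENSMUSG00000045273) and Cenpk (ENSMUSG00000021714) are both on chromosome 13, at 100759674 to 100775899 on the minus strand and at 104228611 to 104252392 on the plus strand. Cenpi held 0.536, 0.320 and 0.427 CPM in control and 2.05, 1.91 and 1.73 CPM in mutant hearts, a log2 fold change of 2.17 ± 0.21 (SE). Cenpm held 0.204, 0.231 and 0.244 CPM in control and 0.947, 0.708 and 0.920 CPM in mutant hearts, 3.74-fold higher. For Cenpk the values were 0.459, 0.302 and 0.468 CPM in control and 1.05, 1.12 and 0.957 CPM in mutant hearts, a log2 fold change of 1.36 ± 0.23 (SE). None of these 3 genes had overlapping groups, where 49.8% of all genes tested had none and 24.4% had all mutant hearts higher. Cenpk shares 4.45% of its exon bases with Ppwd1 on the opposite strand, which a kit without strand marks cannot separate.

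Cenph rested on few reads. Control hearts 1 to 3 held 12, 5 and 1 counts and mutant hearts 32, 34 and 39. Summed over hearts this is 18 against 105 counts, a ratio of 5.42 after library scaling, with an exact 95% interval of 3.27 to 9.50 that covers counting error only. The fitted log2 fold change was 2.39, and 3.51 without control heart 1, the control with the most counts. Cenph and Cenpm each reached the level of the filter on low counts in 1 control heart and in 3 mutant hearts, so they entered the test table through the mutant hearts. Both could hardly have been listed as lower.

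Over the 10 genes, all mutant hearts lay above all control hearts for 8 and below them for 2, Cenpa and Cenpb. Across all genes tested, these shares are 24.4% and 25.4%, or 49.8% without overlap either way. The genes were chosen on this same contrast, so no weight can be put on the count. With no composition correction, or on log2(RPKM + 1) and log2(RPKM + 0.1), 9 of the 10 had a positive log2 fold change and Cenpa alone a negative one, of -1.34, -1.11 and -1.31.

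**Figure D3:**
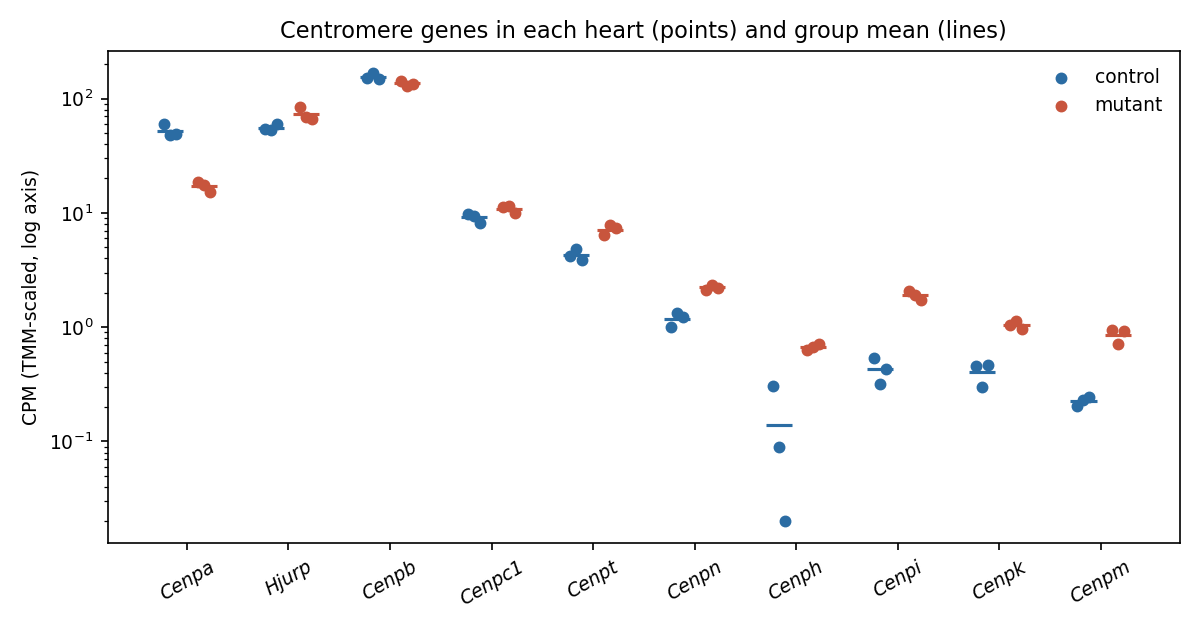
TMM-scaled CPM of the 10 centromere genes in each heart, on a log axis. Points are hearts (3 control, 3 mutant) and short lines are group means. Cenpa drops from 52.5 to 17.1 CPM, Cenpb differs little, and the other genes lie higher in mutant hearts.

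The order of Cenpa and Hjurp by level differed between the groups. By mean RPKM, a level per length, control hearts ranked Cenpb (28.7), Cenpa (8.07), Hjurp (6.02), Cenpc1 (1.46), Cenpt (1.06) and Cenpn (0.325) apart from each other, with no overlap between neighbours. Below them Cenpk (0.202), Cenpm (0.170), Cenph (0.0699) and Cenpi (0.0678) overlapped with their neighbours. In mutant hearts Hjurp (9.68) stood above Cenpa (3.19), with Cenpb (30.4) still highest. Cenpt (2.15) and Cenpc1 (2.12) then overlapped, as did Cenpm (0.784) with Cenpn (0.742) and Cenph (0.414) with Cenpi (0.366), and Cenpk (0.624) stood between those pairs. Deposited RPKM values have no composition correction, so they order genes within a group. The authors' lengths for Cenpk and Cenpm were 0.352 and 0.747 times the M21 exon length, which raises the RPKM of both against the M21 length. The lengths also count bases found only in retained-intron models, 69.5% of those of Cenpa and 41.3% of those of Hjurp, so the levels of both depend on the length used. With the counts unchanged, a change of length moves a gene by the same factor in every heart.

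The remaining machinery was read from 8 lists, chosen with earlier results of these data known, so their counts are a description. The lists hold 78 genes, all of them tested and none of them among the 10. Of these, 41 rose and 2 fell (Cenpx and H2afy), and 35 were not called (edgeR quasi-likelihood, Benjamini-Hochberg adjusted over all genes), where 18.1% of all genes rose and 19.5% fell. The median log2 fold change was 0.29, against -0.00 for all genes tested. The lowest of the 78 log2 fold changes was -0.33, against -1.62 for Cenpa. Cenpa was picked for its difference between the groups, so this gap is a description. Without a composition correction 63 rose and both falls were lost, where 7479 of all 14877 genes tested rose. Without mutant heart 2, 32 rose, where 2039 of 15102 genes did.

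Among the other 9 CCAN subunits, 3 rose, 1 fell and 5 did not pass, with a median log2 fold change of 0.35. Cenps rose by 0.76, Cenpw by 0.71 and Cenpl by 0.48 (edgeR quasi-likelihood adjusted p of 0.0252, 0.0189 and 0.0409). CENP-W and CENP-S are histone-fold proteins, and CENP-L is the partner of CENP-N. These calls were narrow. That of Cenpl was lost without control heart 1 or 2 or mutant heart 2 or 3, with adjusted p of 0.0593 to 0.16. That of Cenpw was lost without control heart 2 or mutant heart 1 or 2 (0.0556 to 0.0828), and that of Cenps without control heart 1 or mutant heart 2 or 3 (0.0537 to 0.0891) and in DESeq2 (0.0504). Cenpx, the histone-fold partner of CENP-S, was at 15.1 ± 1.27 CPM in control and 12.02 ± 0.545 CPM in mutant hearts (SD, n = 3 each). It fell by 0.33 on the log2 scale (edgeR adjusted p = 0.014). Its call was lost without control heart 2 (adjusted p = 0.0645) and without a composition correction (-0.04, edgeR adjusted p = 0.7) or on both RPKM scales (limma adjusted p of 0.671 and 0.668).

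Of 12 genes for CENP-A deposition and licensing, 5 rose and 7 did not pass, with a median of 0.15. Oip5 encodes a protein needed to mark the centromere for HJURP, and Plk1 encodes a kinase that licenses this step. Oip5 rose by 0.89 and Plk1 by 0.95 on the log2 scale (edgeR quasi-likelihood adjusted p of 0.01 and 0.00722). Npm1, encoding nucleophosmin, a histone chaperone of the nucleolus, rose by 0.33 (adjusted p = 0.00681). The exons of Oip5 and Plk1 overlap genes on the opposite strand over 9.67% and 7.09% of their bases.

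Parts of the kinetochore that assemble at mitosis were read next. Of 10 genes of the KMN network, which binds microtubules, 6 rose and 4 did not pass, with a median of 1.13. Mean CPM rose for Spc25 from 1.39 ± 0.0615 to 3.92 ± 0.494 and for Knl1 from 0.690 ± 0.134 to 2.45 ± 0.552 (SD, n = 3 each). Nuf2 and Dsn1 rose by 1.61 and 0.97 on the log2 scale. These 4 genes had edgeR quasi-likelihood adjusted p of 4.21e-05 to 6.71e-04. Of 15 genes of the outer kinetochore and the spindle checkpoint, 11 rose and 4 did not pass, with a median of 1.25. The checkpoint kinase gene Bub1 had a log2 fold change of 2.39 ± 0.18 (SE), Kntc1 of the Rod-Zwilch-Zw10 complex 2.30, Ska1, a microtubule-binding subunit, 2.23, and Bub1b, encoding BubR1, 1.91. Ska1 held 0.11 to 0.15 CPM in control hearts, under the filter level of 0.21 CPM, and 0.57 to 0.70 CPM in mutant hearts. It thus entered the test through the mutant hearts and could hardly have been called lower. Of 8 genes of the inner centromere, 7 rose and 1 did not pass, with a median of 1.59. Birc5, Cdca8 and Aurkb, all of the chromosomal passenger complex, rose by 1.93, 1.91 and 1.79 (4.48% of the exon bases of Cdca8 lie opposite another gene), and the microtubule depolymerase gene Kif2c by 1.88. Mki67 and Top2a, general markers of cycling cells, rose by 1.45 and 1.84 (edgeR adjusted p of 1.88e-04 and 3.03e-05). They come from a list of 8 cycling genes, of which 7 rose and Pcna did not pass (0.12, edgeR adjusted p = 0.268).

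**Figure D4:**
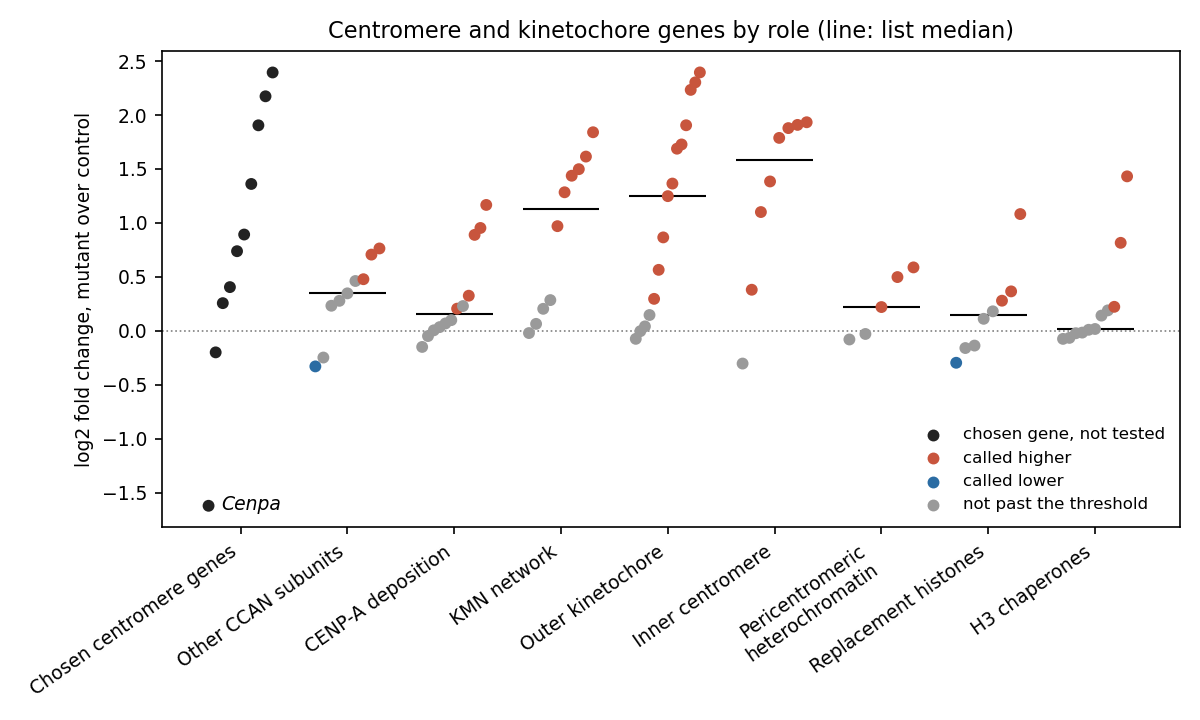
log2 fold changes, mutant over control, for the 10 chosen centromere genes (black, not tested) and for 78 other genes grouped by role. Red points were called higher and blue points lower at an adjusted p under 0.05, grey points did not pass, and lines are list medians. Cenpa, which was picked for its difference, is at -1.62, and the lowest point of the other lists is at -0.33.

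Chromatin genes were read from 3 lists. Of 5 genes of pericentromeric heterochromatin, 3 rose and 2 did not pass. The 3 are the genes of the HP1 proteins, which bind methylated H3. Cbx5 rose from 129.2 ± 5.69 to 194.2 ± 14.2 CPM (SD, n = 3 each), Cbx3 by 0.50 and Cbx1 by 0.22 on the log2 scale. The call of Cbx1 was lost without control heart 2 or 3 or mutant heart 2 or 3 (adjusted p of 0.0598 to 0.0917, against 0.0205 with all hearts, all from edgeR). Of 8 replacement histone genes, the class to which Cenpa belongs, 3 rose, 1 fell and 4 did not pass, with a median of 0.15. H2afy2, encoding a macroH2A, rose from 6.88 ± 0.222 to 14.6 ± 1.24 CPM (SD, n = 3 each), H2afx by 0.37 and H3f3b, a gene for H3.3, by 0.28. Exons of H2afx, H2afy2 and H2afy overlap genes on the opposite strand over 10.2%, 10.7% and 7.36% of their bases. Near-identical copies of the H3.3 genes exist, so the counts of H3f3b are uncertain. H2afx was no longer called without control heart 1 or 3 or mutant heart 2 or 3 (edgeR adjusted p of 0.0896 to 0.131). H2afy, the other macroH2A gene, fell by 0.30, and its call was lost without a composition correction (-0.01, edgeR adjusted p = 0.908) and on both RPKM scales (limma adjusted p of 0.885 and 0.883). The median and the lowest value of this list show no other replacement histone with a fall of the size of Cenpa. As Cenpa was picked for its difference, this too is a description. Of 11 genes for chaperones of H3, 3 rose and 8 did not pass, with a median of 0.02. Chaf1b and Asf1b, which act at replication, rose by 1.43 and 0.82 on the log2 scale, and Cabin1, of the HIRA complex, by 0.22. Cabin1 was lost without control heart 1 or 2 or mutant heart 2 or 3 (edgeR adjusted p of 0.0523 to 0.0982).

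The genes next to Cenpa on chromosome 5 were read as well, since position was not used to choose it. Within 100 kb the tables list 3 other genes, all on the plus strand. Slc35f6, which encodes a solute carrier and ends 7.0 kb before Cenpa, averaged 53.9 ± 4.42 CPM in control and 33.3 ± 0.949 CPM in mutant hearts (SD, n = 3 each). Its log2 fold change was -0.69 ± 0.07 (edgeR adjusted p = 7.4e-05). Kcnk3, a potassium leak channel gene 41.5 kb before it, averaged 238.1 ± 11.6 and 132.4 ± 6.08 CPM, and its log2 fold change was -0.85 ± 0.06 (edgeR adjusted p = 1e-05). Dpysl5, 36.7 kb on the far side, held 0.237 to 0.675 CPM and did not pass (-0.35 on the log2 scale, edgeR adjusted p = 0.5). Both falls were called under every alternative tried. So 2 of the 3 listed neighbours fell, where 19.5% of all genes did. None of the 3 shares exon bases with Cenpa.

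The genes most like Cenpa were found by the root mean square difference of log2 CPM, centred on the mean of each gene, over the 6 hearts and 10058 named genes with a mean of at least 5 CPM. They were Osgepl1 (0.11), Sorl1 (0.12), Intu (0.14), Agtpbp1 (0.14) and Abcd2 (0.15), none of them a centromere or kinetochore gene of the lists. Osgepl1, a gene of transfer RNA modification in mitochondria, held 51.9 to 57.6 CPM in control and 16.4 to 21.0 CPM in mutant hearts, close to Cenpa in level too. Agtpbp1, a gene for an enzyme that trims tubulin tails, held 80.8 to 88.8 and 30.8 to 32.7 CPM. For Hjurp the nearest were Fmo5 (0.06), Rnf2 (0.06), Mrap (0.06), Ss18l1 (0.07) and Epb41l5 (0.07). With 6 hearts in 2 groups, these likenesses are largely set by the difference between the groups, and they are given as a description.

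Markers of the cell types of the heart also differed, where 18.1% of all genes tested rose and 19.5% fell. Heart muscle markers were abundant, their sum being 42320 to 47670 CPM in control and 38350 to 39770 CPM in mutant hearts, and 4 of 8 fell. Of 6 macrophage markers 4 fell, with sums of 74.2 to 82.8 CPM in control and 49.7 to 52.3 CPM in mutant hearts and a median log2 fold change of -0.63. Of 7 endothelial markers 4 fell (1391 to 1522 against 1189 to 1292 CPM), and of 7 fibroblast markers 3 rose (1478 to 1696 against 1778 to 1942 CPM). Of 6 smooth muscle and pericyte markers 1 rose and 1 fell, with sums of 1710 to 1833 against 1558 to 1655 CPM. The called endothelial falls were -0.21 to -0.34 on the log2 scale, and those of Myl2, Actc1, Tnnc1 and Rgs5 were -0.21, -0.30, -0.37 and -0.26. Falls of this size lie near the 0.28 by which the median moved without a composition correction, so they may depend on the scaling. Those of Myl3 (-0.85) and of the called macrophage markers (-0.61 to -0.72) were larger. Erythroid sums overlapped between groups (157.5 to 244.8 against 91.2 to 242.4 CPM), as did those for brown fat, where Ucp1 was at 0 counts in 2 of 6 hearts. Lymphoid and thymus markers summed to 1.58 to 1.65 CPM in control and 0.957 to 1.38 CPM in mutant hearts. Cd4 and Cd79a gave most of this sum, at means of 0.901 and 0.411 CPM in control and 0.574 and 0.439 CPM in mutant hearts. Dntt was at 0 counts in 4 of 6 hearts and Rag1 in 2. The part of cell composition in the values of Cenpa and the other members was not tested.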

How the data were processed

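RNA was measured in 6 whole hearts. Per the labels' protocols, Trizol was used for the total RNA and a TruSeq RNA v2 kit, which does not mark strand, for the libraries. The authors deposited raw counts for each Ensembl gene, and their deposited RPKM values divide them by gene length and library total. The genome build mm10, featureCounts 1.5.1, STAR 2.5.2b and cutadapt 1.9 are named, with no role or order, per the submitters' processing notes. Annotation release and treatment of multiply matching reads: not given in the sources used here. Symbols and coordinates came from GENCODE M21, which matched 20081 of 20121 identifiers, and promoters from RefSeq on GRCm38.p6.

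The test was run in R 4.3.3 with edgeR 4.0.16 on the counts: filterByExpr at its defaults, which removed 5244 genes, TMM scaling, and the quasi-likelihood F test with group as the only term and Benjamini-Hochberg adjustment over 14877 genes. SEs are approximate, each log2 fold change over the root of its F. The test was tried on simulated data. Alternatives were DESeq2 1.42.0, its size factors, no composition correction, no filter, limma 3.58.1 on log2(RPKM + 1) and log2(RPKM + 0.1), the replicate number as a block, and leaving out each heart. Replicates differed by more than sampling noise. The members and the lists were chosen with earlier results of these data known. Named genes were all members, up to 4 called genes of each list by adjusted p with any called gene against the list's majority, label and cycling markers, neighbours within 100 kb, and the 5 genes most like Cenpa and Hjurp. A gene that this rule names is not reported here.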

Additional observations from a re-analysis of the deposited data

How the results depend on the processing

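Across the 13 alternatives, the log2 fold change of Cenpa was negative in every one. It was -1.34 without a composition correction, -1.11 on log2(RPKM + 1) and -1.31 on log2(RPKM + 0.1) with limma, and between -1.69 and -1.51 in the others. In the same 3 settings, of which the limma ones change the test and the value scale as well, and in that order, 7479, 7349 and 7391 genes were called higher and 1207, 1215 and 1221 lower, against 2688 and 2898 with TMM. Leaving out 1 heart gave 2039 to 2661 higher and 2234 to 2856 lower. Of the other centromere and kinetochore genes, 63 were higher in each of the 3, against 41 with TMM and 32 to 39 without 1 heart, and 0 were lower against 2; at an unadjusted p under 0.05, 0 were lower too by edgeR and by limma, against 5 with TMM. The log2 fold change of Cenpb turned positive in these 3 settings, at 0.0848, 0.0816 and 0.0841.

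The labels do not say that a replicate number marks a litter or day. Deviations of same-numbered hearts correlated across genes at 0.155, -0.05 and 0.096, and not every heart correlated best with its own number, so the numbers were not taken as pairs. With the replicate number as a block, 3090 genes were higher and 3229 lower, 42 and 3 of the other centromere and kinetochore genes were, and Cenpa had a log2 fold change of -1.62. Cenpl was not called there (edgeR adjusted p = 0.0589).

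Depth limits Cenph most, with 1 to 12 counts in control hearts. Each group had 3 hearts, so single values far from the others were not searched for.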
